A study of Mus musculus with 12 samples.

Results

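The 10 genes described here mark the cells of blood vessels: Pecam1, Cdh5, Kdr and Tek mark the endothelium that lines vessels, and Rgs5, Abcc9, Kcnj8, Cspg4, Acta2 and Myh11 mark the mural cells around it, pericytes and smooth muscle. They were taken by symbol, 10 of the 23284 symbols of an FPKM table (fragments scaled to transcript length and library size) of 12 RNA-seq libraries, and all 10 were found. The libraries came from mouse cells that had been sorted as muscle progenitors, positive for α7-integrin and VCAM and negative for CD31 and CD45. CD31 is the product of Pecam1, so the sort was built to leave out cells with much of that protein, and CD45, the product of Ptprc, marks leukocytes.

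There were 4 groups of 3 libraries, all labelled with the strain 129P2/OlaHsd. The transplant cells came from tibialis anterior muscle, 1 month after cells derived from a teratoma had been transplanted into it. The teratoma cells came from teratomas 3 weeks old, tumours of mixed tissue that grow from pluripotent stem cells. The adult cells came from the hindlimbs of male mice aged 8 weeks, and the embryo cells from whole embryos at E14.5. The recipient muscle also holds host cells, the labels name no donor marker among the sort antigens, and neither the host strain nor any pooling of animals is given. The series calls its replicates biological without naming separate animals, so the p-values measure the spread between these libraries.

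Endothelial cells and mural cells signal to each other while a vessel forms. VEGF ligands act on the receptor Kdr, angiopoietins act on the receptor Tek, and PDGF-B released by endothelium draws in mural cells that carry the receptor Pdgfrb. In muscle, pericytes lie on the capillaries close to the satellite cells, the resident stem cells. Not all of these genes are exclusive to vessels: Acta2, for example, is also transcribed for a time by differentiating skeletal myoblasts, and Tek has been described in satellite cells.

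Myogenic genes were present in all 12 libraries, with Pax7 between 8.24 and 54.8 FPKM and Myod1 between 11.2 and 442 FPKM, and none of the 9 myogenic markers was at 0 in all libraries of a group. Ptprc reached 1.44 FPKM at most, in teratoma replicate 3, and was listed at 0 in all 3 adult libraries. Between 9495 and 12000 genes reached 1 FPKM per library, and 39.2% to 97.7% of each library's summed FPKM belonged to small and ribosomal RNA. Read depth is unknown. Among values under 0.2 FPKM, the most frequent ratio to the same gene in teratoma replicate 1 ran from 0.753 in embryo replicate 1 to 1.21 in embryo replicate 2, so 1 fragment was not worth the same in all libraries.

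Set against the teratoma cells, the cells sorted from transplanted muscle had less of most of these vessel transcripts. Of the 10 genes, 8 fell, none rose, and Pecam1 and Tek did not pass the test, with a median log2 change of -1.54 against -0.28 over all tested genes. Among the 12699 genes tested, 18.5% were called lower and 4.18% higher, at an adjusted p under 0.05 (limma on log2(FPKM + 1), Benjamini-Hochberg over all tested genes). The 8 were Cdh5, Kdr, Rgs5, Abcc9, Kcnj8, Cspg4, Acta2 and Myh11. Leaving out any 1 library of the 2 groups gave 8 calls each time.

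The teratoma cells stood above the adult cells for most of the same list. In that comparison 7 of the 10 genes rose, none fell, and Pecam1, Tek and Myh11 did not pass the test. The median log2 change was 1.38 against 0.50 over all tested genes, of which 36.4% were called higher and 8.94% lower. Against the embryo cells the teratoma cells were split: Cdh5, Rgs5, Acta2 and Myh11 rose, Tek and Kcnj8 fell, and 4 genes did not pass the test. The background there was 15.5% higher and 10.6% lower, and the median was 0.85 against 0.01.

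The transplant cells were not uniformly low when set against the native groups. Against adult cells, Cspg4 and Acta2 rose, while Tek, Rgs5, Abcc9 and Myh11 fell, with a background of 27.3% higher and 16.9% lower. Against embryo cells, 6 of the 10 genes fell and none rose, with a background of 27.6% lower and 14.9% higher. The 6 were Cdh5, Kdr, Tek, Abcc9, Kcnj8 and Cspg4.

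Between the native groups, 5 genes fell in adult cells relative to embryo cells, namely Kdr, Abcc9, Kcnj8, Cspg4 and Acta2, and Rgs5 and Myh11 rose. The background was 36.9% lower and 15.8% higher. Fewer cells of a type and less RNA per cell cannot be told apart in any of these bulk libraries, and the 6 comparisons share libraries.

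The comparisons with adult cells and with transplant cells carry a shift over all genes that median-ratio scaling takes out. With that scaling the median over all genes was 0.11 for teratoma against adult, 0.09 for transplant against adult, where it was 0.23 unscaled, 0.00 for transplant against embryo, where it was -0.24 unscaled, -0.02 for transplant against teratoma, and -0.03 for adult against embryo, where it was -0.42 unscaled. The share of higher genes among all calls then was 52.6% with scaling and 80.3% without for teratoma against adult, and 51.7% and 61.7% for transplant against adult. It was 51.4% and 35.0% for transplant against embryo, 44.1% and 18.5% for transplant against teratoma, and 50.1% and 30.0% for adult against embryo. For the 10 genes the scaled counts were 6 higher and 1 lower for teratoma against adult (2881 and 2596 of all genes). They were 2 and 5 for transplant against adult (3038 and 2842 of all genes). For adult against embryo they were 2 and 3 (3289 and 3280 of all genes). The scaled counts of the 10 genes in the other 3 comparisons were as given above. All genes there gave 1922 higher and 1319 lower for teratoma against embryo, and 2550 and 2407 for transplant against embryo. For transplant against teratoma all genes gave 926 and 1176. Without scaling 12699 genes were tested.

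**Figure D1:**
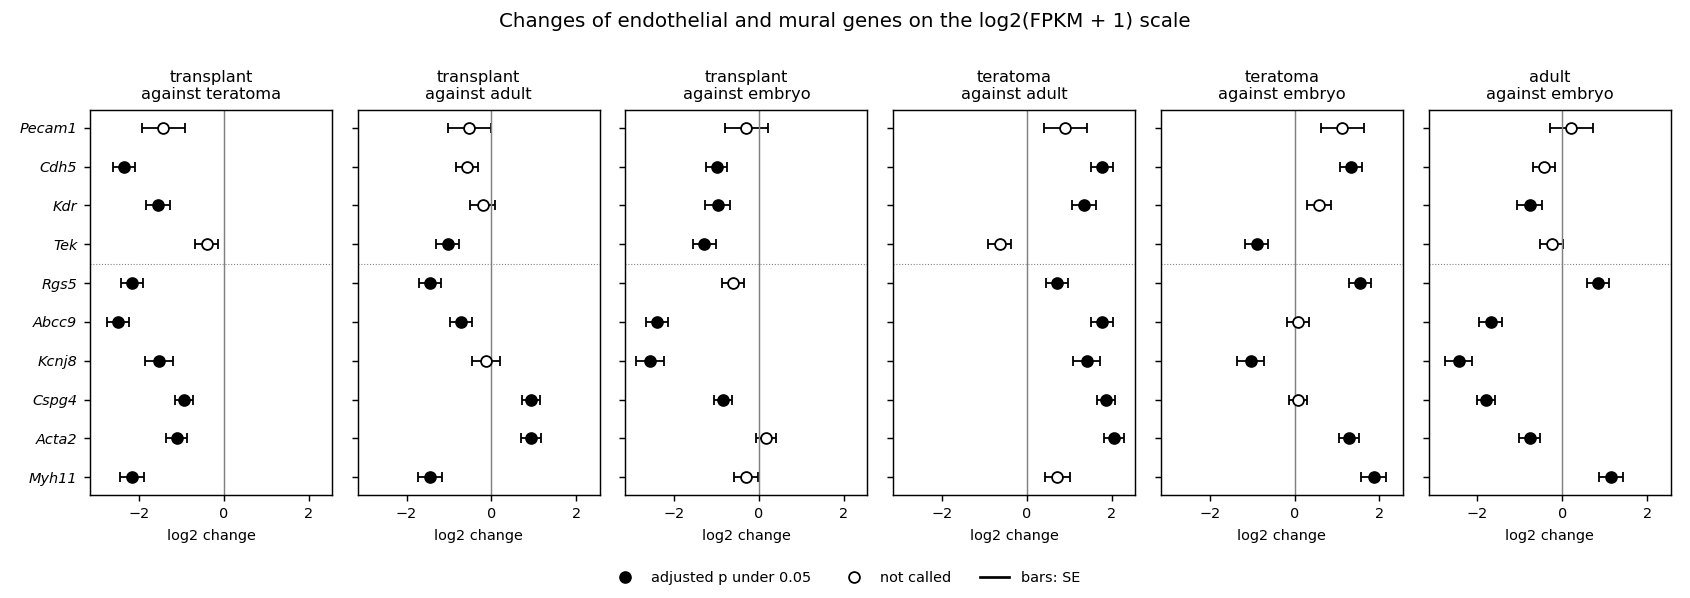
Log2 change of each of the 10 genes in the 6 comparisons, on the log2(FPKM + 1) scale, with the standard error as a bar and filled points for genes past an adjusted p of 0.05. For transplant against teratoma all 10 points lie below 0 and 8 are filled.

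Pecam1 (chromosome 11, 106654217 to 106750628, minus strand, mm10) encodes CD31, an adhesion molecule of endothelial junctions, leukocytes and platelets. It had 2.10, 2.36 and 1.42 FPKM in transplant cells, 9.62, 5.49 and 6.13 in teratoma cells, 2.15, 3.06 and 4.80 in adult cells, and 0.638, 8.31 and 2.10 in embryo cells. The transcript of the excluded antigen was thus above 0 in all 12 libraries, and the embryo libraries spanned almost the whole range seen. Every transplant library was below every teratoma library, yet the change of -1.43 (SE 0.506) had an adjusted p of 0.0613 in limma. No comparison called Pecam1, with adjusted p between 0.0613 and 0.744. When only the 2 groups were fitted, transplant against teratoma had an adjusted p of 0.0127 and teratoma against adult 0.0415, and with library quality weights transplant against teratoma had 0.0291. Other settings weakened both, with an adjusted p of up to 0.197 for transplant against teratoma. For teratoma against adult the change went down to 0.26 and the adjusted p up to 0.715. For teratoma against embryo the change of 1.13 (adjusted p = 0.125) was 1.81 (adjusted p = 0.00465) without embryo replicate 2 and 0.55 (adjusted p = 0.399) without embryo replicate 1.

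Cdh5 (chromosome 8, 104101625 to 104144511, plus strand) encodes VE-cadherin, the cadherin of endothelial junctions. Its levels were 2.87, 2.85 and 2.89 FPKM in transplant cells, 21.0, 17.8 and 17.3 in teratoma cells, 3.95, 4.38 and 6.08 in adult cells, and 4.44, 10.4 and 6.53 in embryo cells. The 3 teratoma libraries were the highest of the 12 and the 3 transplant libraries the lowest. Cdh5 fell by 2.34 on the log2 scale (SE 0.258, adjusted p = 0.000122) in transplant relative to teratoma cells. In teratoma cells it rose by 1.78 over adult cells (adjusted p = 0.00022) and by 1.34 over embryo cells (adjusted p = 0.00262). In transplant cells it fell by 1.00 relative to embryo cells (adjusted p = 0.00792). The change against adult cells was -0.57 (adjusted p = 0.0946), and -0.76 (adjusted p = 0.0262) with median-ratio scaling.

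Kdr (chromosome 5, 75932827 to 75978458, minus strand) encodes VEGFR2, the main signalling receptor for VEGF-A on endothelium. It had 0.500, 0.751 and 0.283 FPKM in transplant cells, 2.72, 3.75 and 3.80 in teratoma cells, 0.792, 0.445 and 0.989 in adult cells, and 1.07, 3.24 and 1.92 in embryo cells. Transplant and adult libraries all lay under 1 FPKM, and teratoma and embryo libraries all above it. Kdr fell in transplant relative to teratoma cells (log2 change -1.55, SE 0.290, adjusted p = 0.00289) and rose in teratoma relative to adult cells (1.35, adjusted p = 0.00274). The rise over adult cells was 0.60 with an adjusted p of 0.151 after quantile normalization. Transplant relative to embryo cells gave -0.97 (adjusted p = 0.0172), a call lost in 4 of 13 alternative settings. Among them were leaving out transplant replicate 3 (adjusted p = 0.0624) or embryo replicate 2 (adjusted p = 0.0634). Adult relative to embryo cells gave -0.77 (adjusted p = 0.041), a call lost in 12 of 13 alternative settings. Among these were leaving out adult replicate 1 (0.0765), 2 (0.137) or 3 (0.0517), or embryo replicate 2 (0.149) or 3 (0.075), and median-ratio scaling (-0.48, adjusted p = 0.181).

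Tek (chromosome 4, 94739289 to 94874976, plus strand) encodes Tie2, the receptor for angiopoietins. Its levels ran in another order, at 1.803, 1.47 and 1.78 FPKM in transplant cells, 2.48, 2.14 and 3.02 in teratoma cells, 4.48, 3.68 and 5.43 in adult cells, and 8.41, 3.53 and 5.55 in embryo cells. Native cells had the higher values in every library. Tek fell in transplant relative to adult cells (-1.03, adjusted p = 0.00912) and relative to embryo cells (-1.29, adjusted p = 0.00251). The difference between transplant and teratoma cells was -0.40 (adjusted p = 0.329). In teratoma relative to embryo cells the fall of 0.89 had an adjusted p of 0.0318, a call lost in 5 of 13 alternative settings. Among them were leaving out teratoma replicate 1 (0.0701), teratoma replicate 2 (0.105), embryo replicate 1 (0.114) or embryo replicate 3 (0.0646). Relative to adult cells the change was -0.64 (adjusted p = 0.0759), and -1.05 (adjusted p = 0.00965) with median-ratio scaling.

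**Figure D2:**
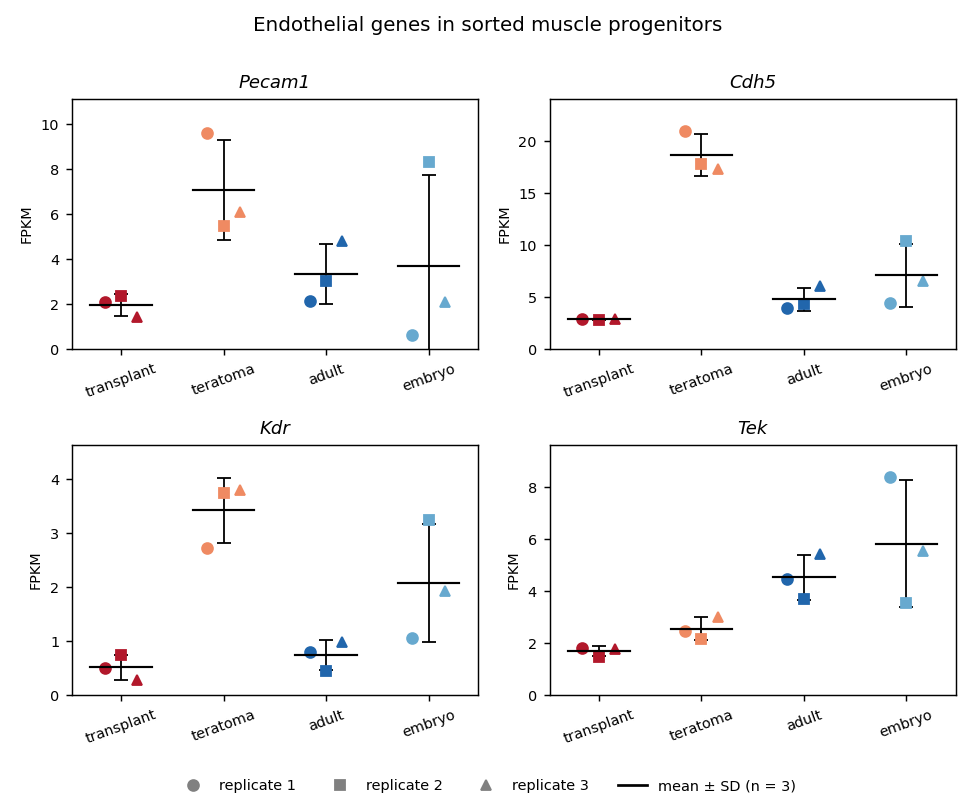
FPKM of the 4 endothelial genes in each library (symbols by replicate number), with the group mean and SD (n = 3) as lines. Teratoma cells have the highest mean for Pecam1, Cdh5 and Kdr (7.08, 18.7 and 3.42 FPKM), while Tek has its highest means in embryo and adult cells (5.83 and 4.53 FPKM).

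The order of the group means was therefore teratoma, embryo, adult and transplant for Pecam1, Cdh5 and Kdr. For Pecam1 no step in that order passed the test. For Cdh5 only the step between teratoma and embryo cells did, and for Kdr only that between embryo and adult cells, with the limit given above. Over the 12 libraries the log2 values of Cdh5 and Kdr correlated at r = 0.93, and those of Pecam1 and Cdh5 at 0.81. Tek correlated with Pecam1 at -0.25, and after the group means were taken off at -0.71, as a description of 12 libraries that share groups, depth and sort.

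Within the embryo group, 3 of the 4 endothelial genes were highest in the same library. Embryo replicate 2 was the highest embryo library for Pecam1, Cdh5 and Kdr, and the lowest for Tek. It was also the highest for 17 of 23 other tested endothelial markers (73.9%), against 31.0% of all tested genes. The summed FPKM of the 25 other endothelial markers was 20.4, 73.9 and 39.4 in the 3 embryo libraries. Adult replicate 3 was the highest adult library for all 4 endothelial genes and for 13 of the 23 other markers (56.5%), against 34.1% of all tested genes.

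The other endothelial markers were high in the teratoma libraries as well. Their sum was 45.9, 43.3 and 41.8 FPKM in transplant cells, 93.2, 106 and 116 in teratoma cells, and 37.8, 34.6 and 53.4 in adult cells. By this sum no teratoma library overlapped with a library of another group. Of the transplant sums, 21.4, 20.7 and 16.4 FPKM came from Eng alone, whose means in transplant and teratoma cells were 19.5 and 18.9 FPKM. In transplant relative to teratoma cells 13 of the 23 that passed the filter on low values fell and none rose (median -1.20), where 18.5% of all tested genes fell, and 8 fell with median-ratio scaling. The tight-junction gene Cldn5 had 0.229, 0 and 0 FPKM in transplant cells, against 7.23, 7.34 and 18.6 in teratoma cells (log2 change -3.36, SE 0.570, adjusted p = 0.00163). Cd93 fell by 2.17 (adjusted p = 0.00378) and Rasip1, a regulator of vessel lumen formation, by 1.90 (adjusted p = 0.0138).

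In teratoma relative to embryo cells 7 of the 23 rose and none fell (median 0.92), led by Gpihbp1, which anchors lipoprotein lipase on capillaries (1.92, adjusted p = 0.000556), the TGF-β co-receptor Eng (1.82, adjusted p = 0.00167) and Vwf, von Willebrand factor (1.71, adjusted p = 0.00128). The background there was 15.5% higher. Relative to adult cells 9 of the 23 rose and none fell, near the 36.4% of all tested genes that were higher, with a median of 0.92 against 0.50 over all tested genes, and 2 rose with median-ratio scaling. The leading genes there were Cd93 (1.70, adjusted p = 0.00652), the adhesion molecule Esam (1.35, adjusted p = 0.0319) and Eng (1.28, adjusted p = 0.00724).

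Against the native groups, few of the 23 were called in transplant cells, at shares no higher than those over all tested genes. Relative to adult cells 2 rose and 3 fell, where 27.3% of all tested genes rose and 16.9% fell, with Clec14a higher (1.45, adjusted p = 0.00276) and Cldn5 (-2.45, adjusted p = 0.00446) and the VEGF receptor Flt1 (-1.42, adjusted p = 0.00142) lower. Relative to embryo cells 3 rose and 3 fell, where 14.9% of all tested genes rose and 27.6% fell, with Eng higher (1.91, adjusted p = 0.000566) and Cldn5 lower (-1.90, adjusted p = 0.0178). In adult relative to embryo cells 2 rose, Vwf (1.15, adjusted p = 0.00551) and Gpihbp1 (0.88, adjusted p = 0.0216), and 2 fell (background 15.8% higher and 36.9% lower), and 4 rose and none fell with scaling.

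Of 6 lymphatic endothelial markers, 4 were tested. The 4 lay at unlike levels. In adult cells Pdpn averaged 167 FPKM and Prox1 15.9, against 1.65 for Reln and 0.0122 for Lyve1. Relative to adult cells 3 of the 4 fell in teratoma cells, where 8.94% of all tested genes fell. They were the surface glycoprotein Pdpn (-1.97, adjusted p = 5e-06), the lymphatic regulator Prox1 (-0.93, adjusted p = 0.00272) and the secreted protein Reln (-0.64, adjusted p = 0.0319). Lyve1 went the other way without passing the test (0.61, adjusted p = 0.383). The untested Flt4 and Ccl21a also had higher means in teratoma than in adult cells, at 0.987 against 0.210 and 0.102 against 0.0204 FPKM. Relative to embryo cells Pdpn (0.90, adjusted p = 0.002) and Prox1 (0.68, adjusted p = 0.0266) rose in teratoma cells, where 15.5% of all tested genes rose. Lyve1 and Reln changed by -0.65 and -0.36 there without passing the test. In transplant relative to teratoma cells Prox1 rose (0.98, adjusted p = 0.00491), where 4.18% of all tested genes rose. Pdpn, Reln and Lyve1 changed by 0.44, -0.22 and -0.09 without passing the test. Prox1 (1.66, adjusted p = 4.49e-05) and Pdpn (1.33, adjusted p = 5.39e-05) rose in transplant relative to embryo cells, and none fell (background 14.9% higher). Pdpn (-1.54, adjusted p = 2.87e-05) and Reln (-0.86, adjusted p = 0.00751) fell in transplant relative to adult cells, and none rose (background 16.9% lower). In adult relative to embryo cells 2 rose and none fell (background 15.8% higher).

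Markers of other cell types moved with these groups. The 10 leukocyte markers summed to 21.9 to 36.0 FPKM in transplant cells, 44.3 to 162 in teratoma cells, 7.18 to 15.96 in adult cells and 4.66 to 11.3 in embryo cells. In the teratoma libraries none of the 10 was at 0 throughout, against 1 in transplant, 6 in adult (Ptprc, Emr1, Aif1, Tyrobp, Fcer1g and Cd52) and 3 in embryo cells. The part of such cells in the endothelial values was not tested.

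**Figure D3:**
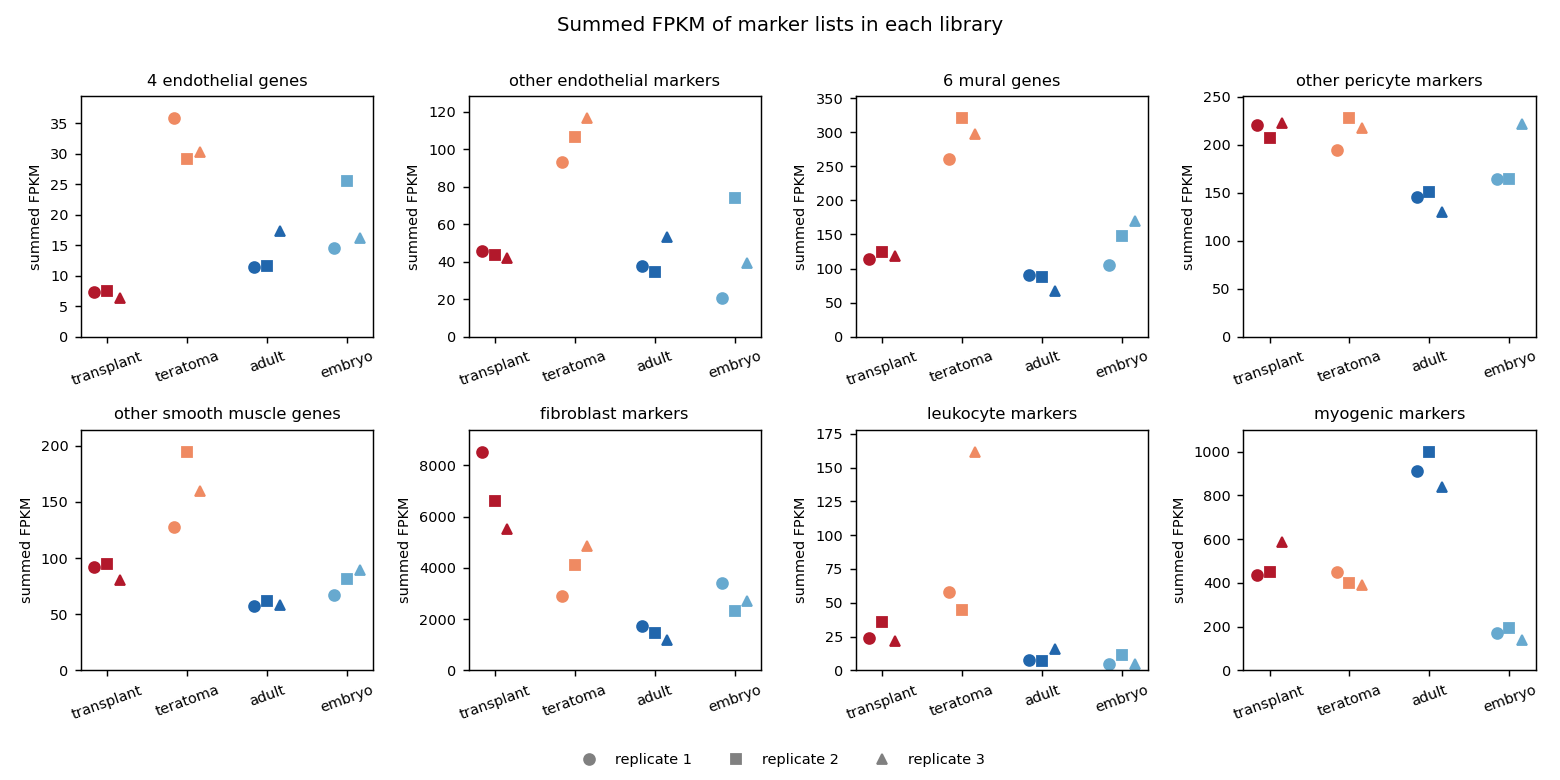
Summed FPKM of marker lists in each library, by group and replicate number. The 25 other endothelial markers sum to 93.2 to 116 FPKM in teratoma cells and to at most 73.9 FPKM elsewhere, while the 16 other pericyte markers overlap between transplant, teratoma and embryo cells.

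Among the mural genes, Rgs5 (chromosome 1, 169655501 to 169695813, plus strand) encodes a regulator of G-protein signalling and is a widely used pericyte marker. It had 6.55, 5.73 and 3.06 FPKM in transplant cells, 26.8, 20.04 and 30.9 in teratoma cells, 17.9, 11.97 and 16.1 in adult cells, and 6.79, 9.02 and 8.45 in embryo cells. The 4 groups did not overlap with each other. Rgs5 fell in transplant relative to teratoma cells (-2.17, SE 0.259, adjusted p = 0.00021) and relative to adult cells (-1.45, adjusted p = 0.000858). It rose in teratoma relative to embryo cells (1.55, adjusted p = 0.00106).

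The other steps of Rgs5 were less firm. Teratoma relative to adult cells gave 0.72 (adjusted p = 0.0394), and 0.21 (adjusted p = 0.538) with median-ratio scaling. Without teratoma replicate 1 or 3, or adult replicate 2 or 3, its adjusted p was 0.0915, 0.132, 0.14 and 0.069. In all, this call was lost in 9 of 14 alternative settings. Adult relative to embryo cells gave 0.83 (adjusted p = 0.0168), with 0.0658 without adult replicate 1, 0.0507 without adult replicate 3 and 0.059 without embryo replicate 1. The difference of -0.61 between transplant and embryo cells had an adjusted p of 0.0759, and -0.79 with 0.046 without transplant replicate 1.

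Myh11 (chromosome 16, 14194535 to 14291372, minus strand), the myosin heavy chain of smooth muscle, followed Rgs5 in its order of groups. It had 0.313, 0.504 and 0.838 FPKM in transplant cells, 3.97, 5.77 and 8.68 in teratoma cells, 2.46, 3.30 and 3.88 in adult cells, and 0.633, 1.18 and 0.900 in embryo cells. Teratoma and adult libraries were all above 2 FPKM, and all but 1 of the transplant and embryo libraries were below 1 FPKM. Myh11 fell in transplant relative to teratoma cells (-2.16, SE 0.285, adjusted p = 0.000367) and relative to adult cells (-1.44, adjusted p = 0.00161). It rose in teratoma relative to embryo cells (1.86, adjusted p = 0.000614) and in adult relative to embryo cells (1.14, adjusted p = 0.00489). The change of 0.72 for teratoma relative to adult cells had an adjusted p of 0.0562, and 0.96 with 0.0228 without teratoma replicate 1. Over 13 alternative settings this change went down to 0.06 and its adjusted p up to 0.891, and 3 of them gave a call. Over the 12 libraries Rgs5 and Myh11 correlated at r = 0.89, and at -0.12 once group means were taken off.

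Abcc9 (chromosome 6, 142587862 to 142702315) and Kcnj8 (chromosome 6, 142564837 to 142571614) lie next to each other on the minus strand, 16247 bp apart. They encode SUR2 and Kir6.1, the regulatory and pore subunits of the ATP-sensitive potassium channel of vascular smooth muscle and pericytes. Because the pair of neighbours moved together in part, their promoters are given with that of Acta2, the most abundant of the 10 genes (RefSeq, GRCm38.p6, 5′ to 3′ on the strand of the gene). Capitals mark the E-box CANNTG, the motif bound by Myod1 and other basic helix-loop-helix factors, which reads the same way on both strands.
Kcnj8 promoter (chr6:142571565-142571864, minus strand): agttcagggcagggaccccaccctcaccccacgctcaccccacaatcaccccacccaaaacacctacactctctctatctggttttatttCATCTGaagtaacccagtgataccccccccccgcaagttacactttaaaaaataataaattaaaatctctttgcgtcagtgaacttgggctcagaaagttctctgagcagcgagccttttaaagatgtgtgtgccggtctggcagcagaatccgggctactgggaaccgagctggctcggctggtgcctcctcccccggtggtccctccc
Abcc9 promoter (chr6:142702225-142702524, minus strand): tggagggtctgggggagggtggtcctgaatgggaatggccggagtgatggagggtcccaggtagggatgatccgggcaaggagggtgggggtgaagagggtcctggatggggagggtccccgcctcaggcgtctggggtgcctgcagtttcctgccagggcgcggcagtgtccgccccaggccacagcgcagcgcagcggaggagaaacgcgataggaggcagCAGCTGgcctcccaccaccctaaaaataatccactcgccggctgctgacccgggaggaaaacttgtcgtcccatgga
Acta2 promoter (chr19:34255324-34255623, minus strand): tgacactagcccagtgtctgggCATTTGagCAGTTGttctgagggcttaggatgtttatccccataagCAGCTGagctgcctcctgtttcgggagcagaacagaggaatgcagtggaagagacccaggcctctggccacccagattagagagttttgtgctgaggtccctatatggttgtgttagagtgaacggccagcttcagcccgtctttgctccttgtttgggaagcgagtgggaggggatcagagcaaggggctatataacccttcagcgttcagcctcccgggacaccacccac

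Kcnj8 had 1 E-box, CATCTG, which began 160 bases before the start site, and Abcc9 had 1, CAGCTG, 27 bases before it. The Acta2 window held 3, at 228, 220 and 182 bases before the start site, the nearest of which was CAGCTG. The E-box occurred in 72.3% of the 32544 RefSeq promoters of that length, at least 3 times in 17.6% of them, and CAGCTG in 16.4%. Of the 7 of 10 genes with a promoter in the table, Cspg4 had no E-box in the window. A match is a description of letters and not of binding.

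Abcc9 had 2.40, 1.14 and 2.03 FPKM in transplant cells, 18.0, 15.2 and 11.8 in teratoma cells, 2.52, 4.55 and 4.11 in adult cells, and 12.7, 12.4 and 17.3 in embryo cells. Kcnj8 had 1.83, 0.647 and 0.924 FPKM in transplant cells, 4.39, 6.84 and 4.08 in teratoma cells, 2.19, 0.464 and 1.46 in adult cells, and 9.46, 13.6 and 11.1 in embryo cells. Both subunits were high in teratoma and embryo cells and low in transplant and adult cells, with no overlap between these 2 pairs of groups. The channel genes differed in where they peaked, with Abcc9 at similar means in teratoma and embryo cells (15.0 ± 3.11 and 14.1 ± 2.76 FPKM, SD, n = 3 each) and Kcnj8 higher in the embryo libraries.

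Abcc9 fell by 2.49 on the log2 scale (SE 0.261, adjusted p = 9.32e-05) in transplant relative to teratoma cells and by 2.41 (adjusted p = 1.87e-05) relative to embryo cells. Kcnj8 fell by 1.53 (SE 0.327, adjusted p = 0.00633) and by 2.56 (adjusted p = 6.72e-05) in the same comparisons. In adult relative to embryo cells Abcc9 fell by 1.69 (adjusted p = 0.000187) and Kcnj8 by 2.44 (adjusted p = 6.12e-05). In teratoma relative to adult cells Abcc9 rose by 1.77 (adjusted p = 0.000246) and Kcnj8 by 1.41 (adjusted p = 0.00431), the last not after quantile normalization (0.72, adjusted p = 0.118).

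Where the pair differed, the calls were less stable. In teratoma relative to embryo cells Kcnj8 fell by 1.04 (adjusted p = 0.0354) while Abcc9 changed by 0.08 (adjusted p = 0.859). The Kcnj8 call was lost in 8 of 13 alternative settings. Among them were a pseudocount of 0.1 (adjusted p = 0.137) and leaving out teratoma replicate 1 (0.0938), teratoma replicate 3 (0.109), embryo replicate 2 (0.0976) or embryo replicate 3 (0.0697). In transplant relative to adult cells Abcc9 fell by 0.73 (adjusted p = 0.04) while Kcnj8 changed by -0.12 (adjusted p = 0.801). The Abcc9 call was lost in 7 of 14 alternative settings. Among them were leaving out transplant replicate 2 (0.148), transplant replicate 3 (0.0603), adult replicate 2 (0.136) or adult replicate 3 (0.112). Of the exonic bases of Abcc9, 1.89% overlap 5330439B14Rik on the opposite strand, and whether strand was used in counting is not given in the sources used here.

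Over the 12 libraries the log2 values of the pair correlated at r = 0.84, and at -0.07 after group means were taken off. Kcnj11 and Abcc8, the other pore and regulatory subunits of this channel family, did not pass the filter and reached 0.629 and 0.366 FPKM at most. Kcnj11 is the pore that pairs with SUR2 in mature skeletal muscle.

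Cspg4 (chromosome 9, 56865033 to 56899870, plus strand) encodes NG2, a surface proteoglycan of pericytes and of several progenitor cells. It had 4.13, 5.52 and 4.92 FPKM in transplant cells, 9.25, 11.1 and 9.88 in teratoma cells, 2.08, 2.10 and 1.97 in adult cells, and 10.3, 7.10 and 11.8 in embryo cells. The adult libraries were the 3 lowest, the transplant libraries came next, and teratoma and embryo libraries overlapped. Cspg4 fell in transplant relative to teratoma cells (-0.92, SE 0.211, adjusted p = 0.00888) and relative to embryo cells (-0.85, adjusted p = 0.00632). In transplant relative to adult cells it rose by 0.94 (adjusted p = 0.00368), a call lost after quantile normalization (0.49, adjusted p = 0.0788). It rose by 1.86 in teratoma relative to adult cells (adjusted p = 4.19e-05) and fell by 1.79 in adult relative to embryo cells (adjusted p = 2.29e-05).

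Acta2 (chromosome 19, 34241090 to 34255590, minus strand) encodes smooth muscle α-actin. It was the most abundant of the 10 genes in every library, with 99.0, 111 and 107 FPKM in transplant cells, 198, 262 and 233 in teratoma cells, 63.8, 65.3 and 39.0 in adult cells, and 65.8, 105 and 120.2 in embryo cells. All teratoma libraries lay above those of the other groups, and all adult libraries lay below. Acta2 fell in transplant relative to teratoma cells (-1.11, SE 0.241, adjusted p = 0.00674) and rose in transplant relative to adult cells (0.94, adjusted p = 0.00768). In teratoma cells it rose by 2.05 over adult cells (adjusted p = 5.2e-05) and by 1.28 over embryo cells (adjusted p = 0.00228). Transplant and embryo cells differed by 0.17 (adjusted p = 0.608). The fall of 0.77 in adult relative to embryo cells (adjusted p = 0.0172) was lost in 5 of 14 alternative settings. Among them were median-ratio scaling (-0.24, adjusted p = 0.419) and leaving out adult replicate 3 (0.0805) or embryo replicate 3 (0.0734).

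**Figure D4:**
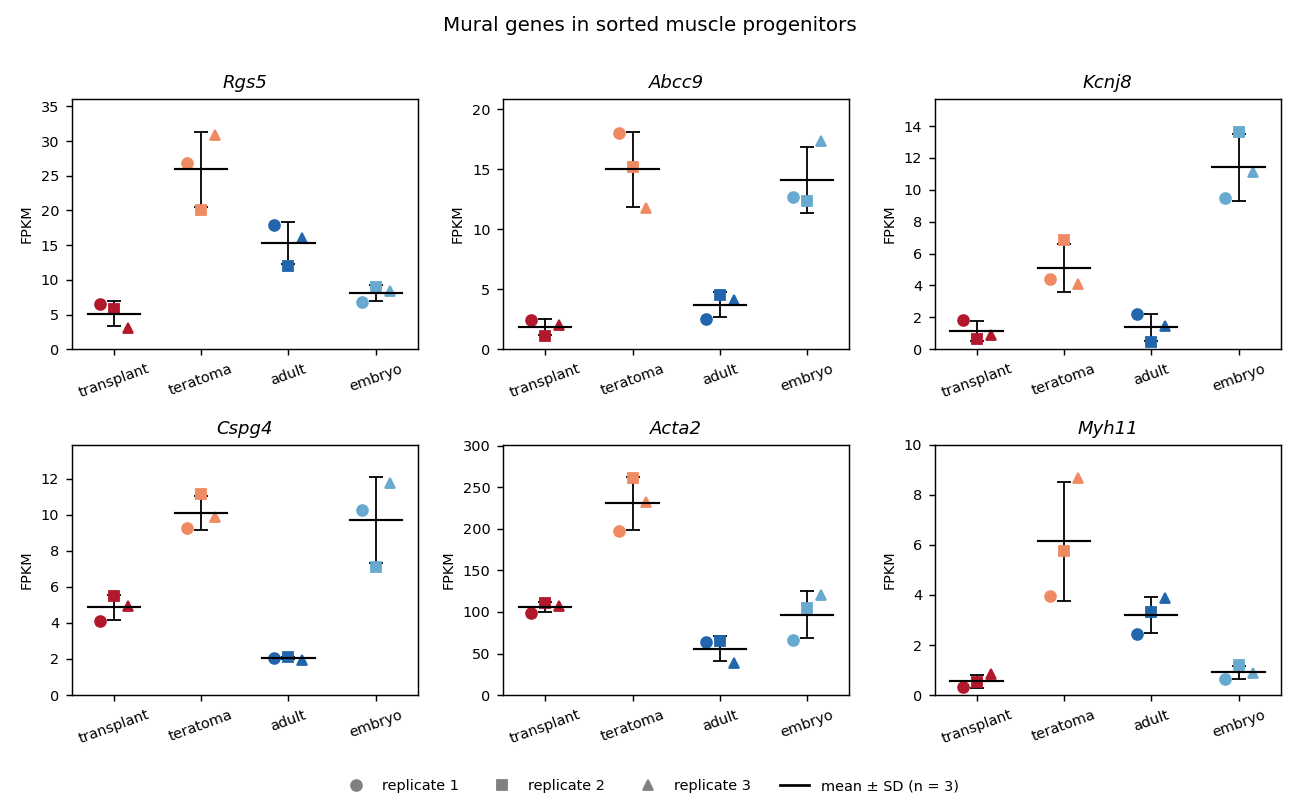
FPKM of the 6 mural genes in each library (symbols by replicate number), with the group mean and SD (n = 3) as lines. Abcc9 and Kcnj8 are high in teratoma and embryo cells, Rgs5 and Myh11 in teratoma and adult cells, and Acta2 is highest in teratoma cells (231 ± 31.9 FPKM).

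The other muscle actins had patterns of their own. The skeletal actin Acta1 averaged 44.4 ± 3.38 FPKM in transplant cells, 40.2 ± 19.3 in teratoma cells, 6.47 ± 4.47 in adult cells and 0.643 ± 0.388 in embryo cells (SD, n = 3 each). The cardiac actin Actc1, which is also expressed in embryonic skeletal muscle, averaged 15.6 ± 4.99 FPKM in transplant cells, 61.6 ± 15.6 in teratoma cells, 0.381 ± 0.549 in adult cells and 102.6 ± 27.2 in embryo cells. The enteric smooth muscle actin Actg2 averaged 2.73 ± 1.55 FPKM in transplant cells, 23.4 ± 13.1 in teratoma cells, 0.859 ± 0.613 in adult cells and 5.27 ± 4.38 in embryo cells. Transplant cells thus had less Actc1 (-1.93, adjusted p = 0.00121) and Actg2 (-2.64, adjusted p = 0.00516) than teratoma cells along with less Acta2, while Acta1 differed by 0.24 (adjusted p = 0.749). Among all 6 actin genes, 5 fell and none rose in that comparison, where 18.5% of all tested genes fell. With median-ratio scaling 4 fell. The cytoplasmic actins Actb and Actg1 averaged 812 and 584 FPKM in transplant cells, against 1176 and 1081 in teratoma cells. The share of windows of 50 bases in Acta2 transcripts that also occur in transcripts of other genes was 0.326%, and at most 1.95% in any of the 10 genes.

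Of 12 other smooth muscle genes listed, 9 were tested. In teratoma relative to embryo cells 5 of the 9 rose and none fell (median 0.80), against a background of 15.5% higher, and relative to adult cells 6 rose and none fell (median 1.09), against 36.4% higher. In transplant relative to teratoma cells 4 fell and none rose (median -0.61), against 18.5% lower. The leading genes in that last comparison were Actg2, the actin-binding calponin Cnn1 (-1.89, adjusted p = 0.0011) and the myosin light chain kinase Mylk (-0.80, adjusted p = 0.0446), and 2 fell with median-ratio scaling. Cnn1 also rose in teratoma cells relative to embryo cells (1.77, adjusted p = 0.00117) and to adult cells (2.21, adjusted p = 0.000131). Transplant cells had 1 of the 9 higher and none lower relative to embryo cells (background 14.9% higher and 27.6% lower). Relative to adult cells they had 2 higher and none lower (background 27.3% higher and 16.9% lower), and none called with scaling. In adult relative to embryo cells 1 rose and 3 fell (background 15.8% higher and 36.9% lower). With scaling 3 rose and none fell, so that direction turned. Myocd, the smooth muscle co-activator, did not pass the filter; it was listed at 0 in all transplant libraries and reached at most 1.56 FPKM, in embryo replicate 2.

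The other pericyte markers did not move as 1 group. Their summed FPKM was 207 to 222 in transplant cells, 195 to 228 in teratoma cells, 131 to 151 in adult cells and 164 to 222 in embryo cells. A large part of it was Notch3, with 75.8 to 120.2 FPKM in transplant, 71.0 to 75.2 in teratoma, 66.1 to 74.0 in adult and 35.7 to 46.6 in embryo cells. Of 15 tested, 1 rose and 4 fell in transplant relative to teratoma cells (median -0.37; background 4.18% and 18.5%), and 3 rose and 2 fell with median-ratio scaling. Mcam (CD146), an adhesion molecule of mural and endothelial cells, had 3.89, 4.68 and 2.46 FPKM in transplant cells, against 18.4, 26.0 and 21.4 in teratoma cells (-2.31, adjusted p = 0.000112). Ndufa4l2 (-2.38, adjusted p = 0.0115) and the transcription factor Foxf2 (-1.82, adjusted p = 0.0416) also fell. Pdgfrb, the PDGF-B receptor, averaged 34.8 ± 8.21 FPKM in transplant cells, 33.6 ± 3.19 in teratoma cells, 7.21 ± 0.459 in adult cells and 38.1 ± 9.35 in embryo cells.

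Relative to adult cells 6 pericyte markers rose and 3 fell in transplant cells, with Anpep (2.196, adjusted p = 0.000476), Ebf1 (2.13, adjusted p = 1.74e-05) and Pdgfrb (2.10, adjusted p = 1.82e-05) ahead. The background was 27.3% higher and 16.9% lower. Teratoma cells had 8 higher and 1 lower relative to adult cells, and 6 and 2 with scaling, against a background of 36.4% higher and 8.94% lower. Relative to embryo cells they had 5 higher and 3 lower, and 5 and 2 with scaling, against 15.5% and 10.6%. The leading genes relative to adult cells were Foxf2 (2.84, adjusted p = 0.00198), Cox4i2 (2.54, adjusted p = 0.000531) and the guanylate cyclase subunit Gucy1b3 (2.24, adjusted p = 0.00025). Relative to embryo cells 3 rose and 3 fell in transplant cells (background 14.9% and 27.6%), with Mcam at -2.98 (adjusted p = 3.18e-06). In adult relative to embryo cells 4 rose and 9 fell (background 15.8% and 36.9%), with Vtn (3.41, adjusted p = 0.000129) and Steap4 (3.04, adjusted p = 1.11e-05) higher and Mcam lower (-2.68, adjusted p = 3.69e-06).

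Fibroblasts share several mural markers, Pdgfrb among them, and their own markers moved with the groups. The 10 fibroblast markers, none of them at 0 throughout any group, summed to 5514 to 8526 FPKM in transplant cells, 2913 to 4841 in teratoma cells, 1187 to 1742 in adult cells and 2332 to 3391 in embryo cells. Of these 10, 6 rose and none fell in transplant relative to teratoma cells, where 4.18% of all tested genes rose. The sum of the 6 mural genes was 114 to 125 FPKM in transplant cells against 260 to 321 in teratoma cells. Most of that sum was Acta2, which alone had 99.0 to 111 FPKM in transplant cells and 198 to 262 in teratoma cells. The part of fibroblasts in the mural values was not tested.

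The ligands of these receptors changed too. Vegfa, the main ligand of Kdr, had 23.6, 28.2 and 22.4 FPKM in transplant cells, 78.4, 78.0 and 65.5 in teratoma cells, 101.7, 89.8 and 106.7 in adult cells, and 32.8, 28.4 and 41.2 in embryo cells. Teratoma and adult libraries were all at least 65.5 FPKM and transplant and embryo libraries at most 41.2. Vegfa fell in transplant relative to teratoma cells (-1.54, SE 0.164, adjusted p = 9.94e-05) and relative to adult cells (-1.97, adjusted p = 6.37e-06), and rose in teratoma relative to embryo cells (1.104, adjusted p = 0.000506).

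Of the 8 tested VEGF ligands and receptors, 1 rose and 4 fell in transplant relative to teratoma cells (background 4.18% and 18.5%), and 1 rose and 2 fell with scaling. Flt1, VEGFR1, had 0.518, 0.317 and 0.408 FPKM in transplant cells, against 4.65, 3.59 and 3.46 in teratoma cells (-1.79, adjusted p = 0.000954), and the lymphatic ligand Vegfc rose (1.30, adjusted p = 0.00815). In teratoma relative to adult cells 5 rose and 1 fell, and 5 and 2 with scaling, where 36.4% of all tested genes rose and 8.94% fell. The list was led there by Vegfb (2.84, adjusted p = 1.19e-05), Pgf (1.96, adjusted p = 0.00125) and Figf, the gene of VEGF-D (1.67, adjusted p = 0.00326). In adult relative to embryo cells 2 rose and 5 fell (background 15.8% and 36.9%), with Vegfb at -3.90 (adjusted p = 3.55e-07). Transplant cells had 1 higher and 5 lower relative to embryo cells, with Figf at -2.66 (adjusted p = 0.000124), and 4 higher and 2 lower relative to adult cells, with backgrounds of 14.9% and 27.6%, and of 27.3% and 16.9%. Teratoma relative to embryo cells gave 1 higher and 3 lower (background 15.5% and 10.6%).

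Of the angiopoietin and PDGF-B genes, 7 were tested. In transplant relative to teratoma cells Tie1, the partner receptor of Tek, fell by 1.74 (adjusted p = 0.0147), Pdgfb by 1.06 (adjusted p = 0.0315) and Ptprb, a phosphatase that acts on Tie2, by 0.83 (adjusted p = 0.0191), while 1 gene rose. Over all tested genes 18.5% fell and 4.18% rose in that comparison. Only 1 of the 7 fell there with scaling. The Tek ligand Angpt1 averaged 4.09 ± 0.791 FPKM in transplant cells, 3.21 ± 0.682 in teratoma cells, 1.08 ± 0.388 in adult cells and 1.91 ± 0.434 in embryo cells. It rose in transplant relative to adult cells (1.30, adjusted p = 0.00129) and to embryo cells (0.80, adjusted p = 0.0205); Tek fell in both comparisons. Relative to adult cells 6 of the 7 rose in teratoma cells, and 4 with scaling, where 36.4% of all tested genes rose. They were led by Pdgfrb (2.07, adjusted p = 1.79e-05) and Pdgfb (2.02, adjusted p = 0.00035). In adult relative to embryo cells 3 fell and none rose (background 36.9% lower). Transplant relative to embryo cells had 1 higher and 1 lower (background 14.9% and 27.6%), and so did teratoma relative to embryo cells (background 15.5% and 10.6%).

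The genes whose log2 values followed each member most closely over the 12 libraries, by Pearson's r among all tested genes, were vessel genes only in part. For Pecam1 they were Tie1, Bcl6b and Rel, at r from 0.90 to 0.91. For Kcnj8 they were Atr, Melk and Atad2, genes with roles in DNA replication or the cell cycle, at 0.97 to 0.99. Melk averaged 0.318 FPKM in transplant cells, 4.06 in teratoma cells, 0.251 in adult cells and 12.1 in embryo cells. For Acta2 they were Actn2, Bmpr1b and Myh3, at 0.93 to 0.94, of which Actn2 and Myh3 encode sarcomere proteins of striated muscle. Myh3, the embryonic myosin, averaged 0.639 FPKM in transplant cells, 4.17 in teratoma cells, 0.0468 in adult cells and 0.529 in embryo cells.

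For the other members the nearest genes were Lrrn3, Aldoc and Ncan for Cdh5, Trp53i11 and Ttc39a besides D230037D09Rik for Kdr, and Fkbp5, Fgf13 and Hars for Tek. They were Syt12, 4933407C03Rik and Apoc1 for Rgs5, Lect1, 5730469M10Rik and Cotl1 for Abcc9, Prkcsh, Tpi1 and Igfbp2 for Cspg4, and Rnf25, Spns2 and Agt for Myh11. All of these correlated at r of 0.90 or more, over libraries that share groups.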

How the data were processed

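Cells had been dissociated with collagenase II and dispase and sorted, RNA purified on RNeasy columns with DNase, and libraries made with the SMARTer Stranded Total RNA Pico kit, per the labels' protocols. Tools named in the submitters' processing notes are TopHat 0.7, Cufflinks 2.2.1.0, CASAVA 1.8.2 and Partek (versions as written there), on mm10. Per the file headers, the authors deposited FPKM by symbol for each library; read counts are not used here, so no counting interval is given. Of 23746 entries, 462 repeats of 240 symbols were summed into 23284 symbols.

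A gene was tested if 3 or more libraries reached 1 FPKM, which left 12699 genes, among them all 10 members. An exact 0 can be a failed estimate, and no member value was 0. limma 3.58.1 in R 4.3.3 fitted log2(FPKM + 1) in 1 model of 4 groups and 12 libraries, with 8 residual degrees of freedom and an intensity trend. Fold changes on this scale understate those of low genes. Benjamini-Hochberg adjustment ran over all tested genes of each of the 6 comparisons. The script was tested on simulated data.

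The members and the marker lists, some of which share genes, were chosen with earlier results of these data known. Named genes are the 10 members, per list and comparison at most 3 called genes with the largest change, the sort genes, and the 3 genes with the nearest pattern to each member. Acta1, Actc1, Actg2, Pdgfrb, Angpt1, Myocd, Kcnj11 and Abcc8 are also given where they were not called, as relatives or partners of a member. Notch3 is given as a large part of a list sum, Lyve1, Flt4 and Ccl21a to complete the lymphatic list, and Actb and Actg1 to complete the actin list. Alternatives were median-ratio scaling, quantile normalization, quality weights per library, a pseudocount of 0.1, testing all symbols or only those averaging 5 FPKM, fits without the other groups, a replicate block, and leaving out each library. Coordinates came from GENCODE M21 on mm10, and promoters, from 250 bases before to 50 after the start site, from RefSeq on GRCm38.p6.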

Additional observations from a re-analysis of the deposited data

How the results depend on the processing

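Over the 6 comparisons and 10 genes, 721 of the recomputed changes kept direction and side of the threshold, 56 lost a call, 17 gained one and 16 turned direction; none of the 16 was called before or after. For teratoma against embryo, Abcc9 turned to -0.0557 without teratoma replicate 1 and to -0.00325 without embryo replicate 2 (range over libraries left out -0.0557 to 0.230), and Cspg4 to -0.118 without embryo replicate 2 (-0.118 to 0.211). For transplant against embryo, Pecam1 was 0.222 with quality weights and 0.379 without embryo replicate 2 (-0.874 to 0.379), and Acta2 -0.0857 without embryo replicate 1 (-0.0857 to 0.344). For transplant against adult, Kcnj8 was 0.0210 with quality weights, 0.0483 without transplant replicate 2 and 0.130 without adult replicate 1 (-0.432 to 0.130). For adult against embryo, Cdh5 was 0.0223 with median-ratio scaling and 0.155 with quantile normalization, and Tek 0.195, 0.304 and 0.00972 with these 2 and without embryo replicate 1 (-0.518 to 0.00972). Pecam1 was -0.355 without embryo replicate 1 and -0.0160 without adult replicate 3 (-0.355 to 0.899). The cause of these turns was not tested.

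A filter at a mean of 5 FPKM left 5 of the 10 genes, so calls dropped to 3 for teratoma against embryo, 3 for transplant against embryo, 5 for transplant against teratoma and 4 for adult against embryo. Leaving out 1 library gave 4 to 7 calls for adult against embryo, the 4 without adult replicate 3, and in the other comparisons 4 to 6 (teratoma against embryo), 6 to 7 (teratoma against adult), 5 to 7 (transplant against embryo), 5 to 6 (transplant against adult) and 8 (transplant against teratoma). Replicate numbers did not pair the libraries: the 18 same-number correlations of deviations from group means ran from -0.0951 to 0.0956, and 3 of 12 libraries correlated best with their own number. With the replicate block 5, 7, 6, 5, 8 and 6 genes were called for teratoma against embryo, teratoma against adult, transplant against embryo, transplant against adult, transplant against teratoma and adult against embryo. The block lost Kcnj8 (teratoma against embryo, adjusted p = 0.0553), Rgs5 (teratoma against adult, 0.0577), Abcc9 (transplant against adult, 0.0637) and Kdr (adult against embryo, 0.0511), and gained Myh11 (teratoma against adult, 0.0361).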
